A study of Homo sapiens with 8 samples.

Results

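Combined treatment with olaparib and palbociclib was compared with DMSO in A2780 cells, over every gene whose mean across the 8 libraries of the study was at least 1 FPKM (fragments per kilobase of exon, scaled to library size, which makes levels of genes of different length comparable). This left 12443 of 31721 genes. The comparison itself used 4 of the 8 libraries: 2 from cells given both drugs and 2 from cells given the solvent DMSO. A2780 is an established human ovarian carcinoma line, each treatment lasted 24 hours, and polyadenylated RNA was sequenced. The remaining 4 libraries came from cells given olaparib alone (2) or palbociclib alone (2) for the same time. No genetic change is labelled in any group, all groups are 1 cell line at 1 time point, and drug doses are not given in the sources used here. The 2 libraries of a group are described as biological repeats, without saying that they came from separate cultures, so the p-values below measure the spread between these libraries, which may be technical. Closest to the expression limit were AC087741.2 (mean 1.00 FPKM) and AP000894.4 (1.0003 FPKM) on the inside, and AC018638.1 (0.9996 FPKM) and AL078644.1 (0.9994 FPKM) on the outside.

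Olaparib inhibits the PARP enzymes, which mark DNA strand breaks with ADP-ribose chains and help to repair them; trapped PARP and unrepaired breaks become replication damage that homologous recombination has to mend. Palbociclib inhibits CDK4 and CDK6, the cyclin D-dependent kinases that phosphorylate the retinoblastoma protein RB and so release E2F factors, which switch on genes for DNA replication. Genes of G2 and mitosis are held down in resting cells by the related DREAM complex, which reaches them through a promoter element called the CHR, often beside a CCAAT box. DNA damage also activates p53, whose targets include the CDK inhibitor p21, encoded by CDKN1A.

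The reads recovered from the table numbered 34049920 and 31177018 in the DMSO libraries and 20561495 and 24904179 in the combination libraries. Summed FPKM was 295656 and 295620 with DMSO and 264453 and 271980 with the combination; both treated libraries were lower. Chi-square divided by its degrees of freedom between the libraries sharing a treatment was 2.37 in DMSO and 4.09 in the combination, so neither pair is a single library deposited again. The labelled epithelial morphology was not matched by epithelial markers: the 7 such genes listed (among them PAX8, MUC16, EPCAM and CDH1) summed to 0.423 to 0.453 FPKM with DMSO and 1.18 to 1.40 FPKM with the combination, and PAX8 and MUC16 were at 0 in both DMSO libraries. VIM, the mesenchymal filament vimentin, stood at 248 and 253 FPKM with DMSO. The other listed mesenchymal markers were far lower with DMSO: ZEB1 at 6.56 and 6.42, CDH2 at 2.60 and 2.37, and COL1A1 at 1.14 and 1.17 FPKM. FN1 was near 0, at 0.096 and 0.11 FPKM, so VIM made up most of the sum of this list. Listed leukocyte, endothelial and erythroid markers each summed to at most 0.618 FPKM in any of these 4 libraries.

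With both drugs, 7070 of the 12443 genes (56.8%) differed from DMSO at a limma adjusted p below 0.05: 2672 genes (21.5%) rose and 4398 (35.3%) fell. Most changes were modest: 134 genes (1.08%) rose more than 2-fold and 71 (0.571%) fell by more than 2-fold on the log2(FPKM + 1) scale, which adds 1 FPKM before the logarithm and understates the change of genes with low values. Both combination libraries lay above both DMSO libraries for 4048 genes (32.5%), and below them for 5836 (46.9%). The median change over all genes was -0.06 log2 units. The share of calls that were rises depended on the scaling: it was 37.8% with the deposited scaling, 46.9% after quantile normalisation and 57.4% when each library was rescaled to the same total (TPM), where the median gene moved by 0.06 instead. Small changes of either sign are therefore relative to the scaling, and the list counts below use the deposited one. Among the 10175 tested protein-coding genes 21.1% rose and 40.7% fell. For lists of protein-coding genes, these shares are a closer comparison than those over all genes.

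**Figure D1:**
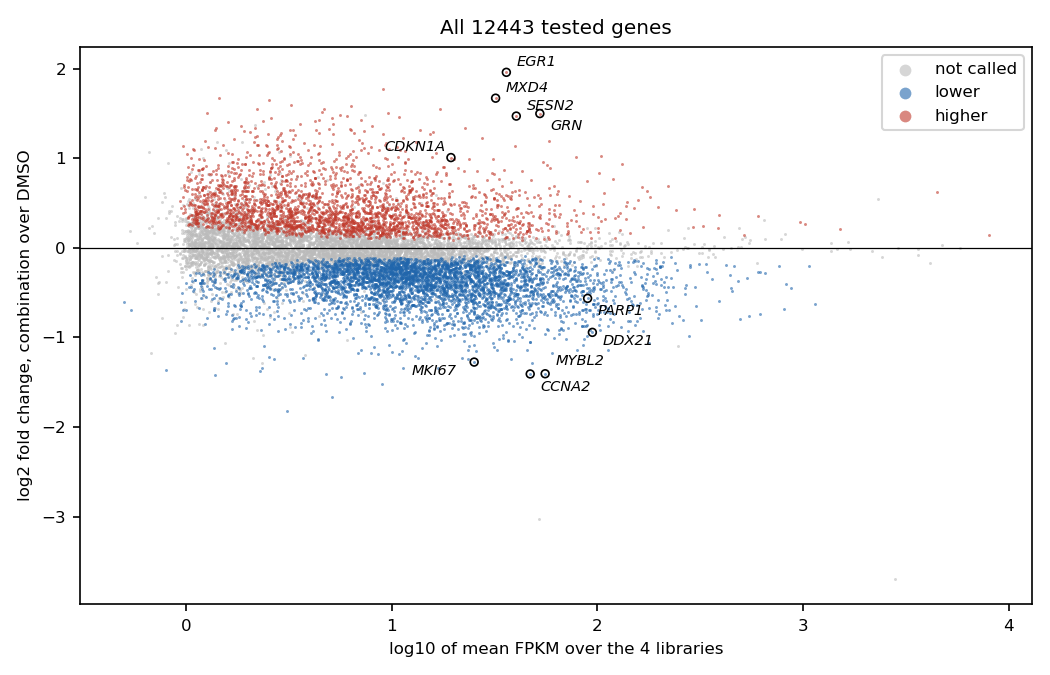
Log2 fold change on the log2(FPKM + 1) scale (vertical axis) against the log10 of mean FPKM over the 4 libraries (horizontal axis) for the 12443 tested genes; each point is a gene, red for higher, blue for lower and grey for not called at a limma adjusted p below 0.05. More points are blue (4398) than red (2672), and the highest red point is EGR1 at 1.96; the 2 lowest grey points are transcripts without a symbol whose combination libraries differed widely.

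The strongest rises among well-expressed protein-coding genes were a mixed group. EGR1, an immediate early transcription factor (chr5:138465490-138469315, GRCh38), measured 15.1 and 13.2 FPKM with DMSO and 63.7 and 52.4 FPKM with the combination. Its mean rose 4.11-fold, a log2 change of 1.96 ± 0.14 (SE; limma adjusted p = 3.96e-05). PBXIP1, a partner of PBX homeobox proteins, went from 3.58 and 3.47 FPKM to 14.2 and 14.9 FPKM. The treated libraries of both genes were far above the DMSO pair, although those of EGR1 were spread more widely. MXD4, which competes with MYC for its partner MAX (chr4:2247432-2262294), measured 13.8 and 15.7 FPKM with DMSO and 45.2 and 53.3 FPKM with the combination, a log2 change of 1.67 ± 0.10 (limma adjusted p = 2.51e-05). GRN, the secreted and lysosomal growth factor progranulin, rose from 25.8 and 28.1 FPKM to 73.7 and 82.6 FPKM. The other rises in this group were WBP1 (log2 change 1.59), TSPYL2 (1.55), ACBD7 (1.51), SESN2 (1.47), S100A3 (1.45), YPEL5 (1.43), GDF15 (1.39) and TRAPPC6A (1.34). Groups that do not overlap were a condition for naming a gene here.

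The strongest falls were mostly cell-cycle genes. CCNA2, cyclin A2, which drives S phase and mitotic entry (chr4:121816444-121823933), measured 66.3 and 71.6 FPKM with DMSO and 25.2 and 25.5 FPKM with the combination. This was a fold of 0.368 and a log2 change of -1.41 ± 0.04 (limma adjusted p = 1.31e-05). MYBL2, the B-MYB factor that activates mitotic genes, went from 80.5 and 82.2 FPKM to 28.8 and 31.4 FPKM. For both genes the drop was far larger than the distance within either pair. MKI67, the Ki-67 proliferation antigen (chr10:128096659-128126385), fell from 35.8 and 36.3 FPKM to 14.9 and 13.7 FPKM. The lowest of all well-expressed protein-coding genes was DDN, encoding dendrin, a gene with no assigned part in the cycle, at 8.69 and 8.73 FPKM with DMSO and 2.49 and 2.68 FPKM with the combination. The remaining falls of this group were WDR76, TMSB15A, BIRC5 (survivin), PTTG1 (securin), AURKB, GINS2, SPC25 and CHAF1B, with log2 changes from -1.34 to -1.19.

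Mitotic genes fell as a body. Of 47 tested mitotic kinases, cyclins and regulators, 44 fell and 1 rose, with a median log2 change of -0.82 against -0.06 for all genes. CCNB1, the cyclin B1 subunit of the mitotic kinase, went from 108 and 114 FPKM to 61.6 and 63.1 FPKM, and FOXM1, a transcription factor of G2 genes, from 20.1 in both to 10.6 and 10.4 FPKM. CDC25C, the phosphatase that activates CDK1, was the exception: it measured 5.11 and 4.91 FPKM with DMSO and 7.17 and 6.21 FPKM with the combination, a log2 rise of 0.35 ± 0.07 (limma adjusted p = 0.00584). All 13 tested mitotic kinesins, the motors of the spindle, fell, led by KIF20A (-1.09), KIF4A (-0.98), KIF18B (-0.90) and KIF14 (-0.88). Of 36 centromere and kinetochore genes 34 fell and none rose (median -0.63), with SKA1 (-1.17) and SKA3 (-1.07), which couple chromosomes to microtubules, and the centromeric histone CENPA (-0.95) among the lowest. Of 20 cohesin and condensin genes 18 fell and none rose, among them NCAPH (-0.97) and SMC4 (-0.93). Tubulins and microtubule genes were split: 7 of 10 fell, including TUBA1B (-1.07) and STMN1 (-1.01), while TUBA1A rose from 22.5 in both libraries to 30.8 and 32.6 FPKM. Tubulin genes are near copies of each other, so reads may have been divided between them.

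DNA replication genes fell with them. Of 51 licensing and fork genes, 49 fell and none rose, with a median of -0.72 and a range from -1.23 to -0.12. GINS2, a subunit of the replicative helicase, went from 31.1 and 31.0 FPKM to 13.2 and 12.3 FPKM, and CHAF1B, which loads histones behind the fork, from 12.4 and 12.1 to 4.87 and 4.76 FPKM. Claspin (CLSPN, -1.18) and the licensing inhibitor geminin (GMNN, -1.09) were also among the lowest. In the list of E2F factors and G1/S cyclins, 14 of 16 fell and 1, TFDP2, rose (0.29). CDC25A, the phosphatase of S-phase entry (-1.15), E2F2 (-1.11), E2F8 (-1.09) and E2F1 (-0.70) fell, whereas cyclin E1 (CCNE1), the partner of CDK2, barely moved, from 28.0 and 27.5 FPKM to 24.2 and 26.1 FPKM. Its limma adjusted p of 0.0439 rose to between 0.0687 and 0.202 without either DMSO library, either palbociclib library or the first combination library, and quantile normalisation turned its sign. Of 13 genes of deoxynucleotide synthesis 11 fell, led by the ribonucleotide reductase subunits RRM2 (82.6 and 84.2 FPKM to 37.2 and 35.6 FPKM) and RRM1 (-1.04), with TYMS (-0.88). The 1 that rose was RRM2B, the p53-controlled reductase subunit (0.40).

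Some replication-dependent histone genes were higher. HIST1H2BK measured 26.8 and 22.4 FPKM with DMSO and 57.9 and 52.4 FPKM with the combination (limma adjusted p = 5.39e-05), and HIST1H2BD 1.73 and 1.28 against 3.67 and 3.62 FPKM (limma adjusted p = 0.000328). HIST1H2BC (0.553 and 0.447 against 2.03 and 2.49 FPKM) and HIST1H2AC (0.719 and 0.873 against 2.25 and 2.07 FPKM) passed the expression limit only through the libraries in which they were high. Since 9 of the 19 listed genes were below that limit, no direction is given for the list. Below the limit, HIST1H1E was lower (0.816 and 0.898 with DMSO against 0.545 and 0.153 FPKM) and HIST1H3B higher (0.0748 and 0.165 against 0.333 and 0.748 FPKM). These genes have near-identical copies, their main transcripts lack a poly(A) tail, and only polyadenylated RNA was sequenced here, so the values cover the polyadenylated part. Chromatin genes outside the nucleosome fell: 23 of 26 DNA methylation, histone chaperone and high mobility group genes were lower, among them UHRF1 and HMGB2 (both -1.14) and HMGN2 (-0.92), while DNMT3A rose from 4.29 and 4.54 to 6.09 and 6.01 FPKM. In bulk RNA, fewer cells in a phase of the cycle and less RNA per cell cannot be told apart, which applies to all of these groups.

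**Figure D2:**
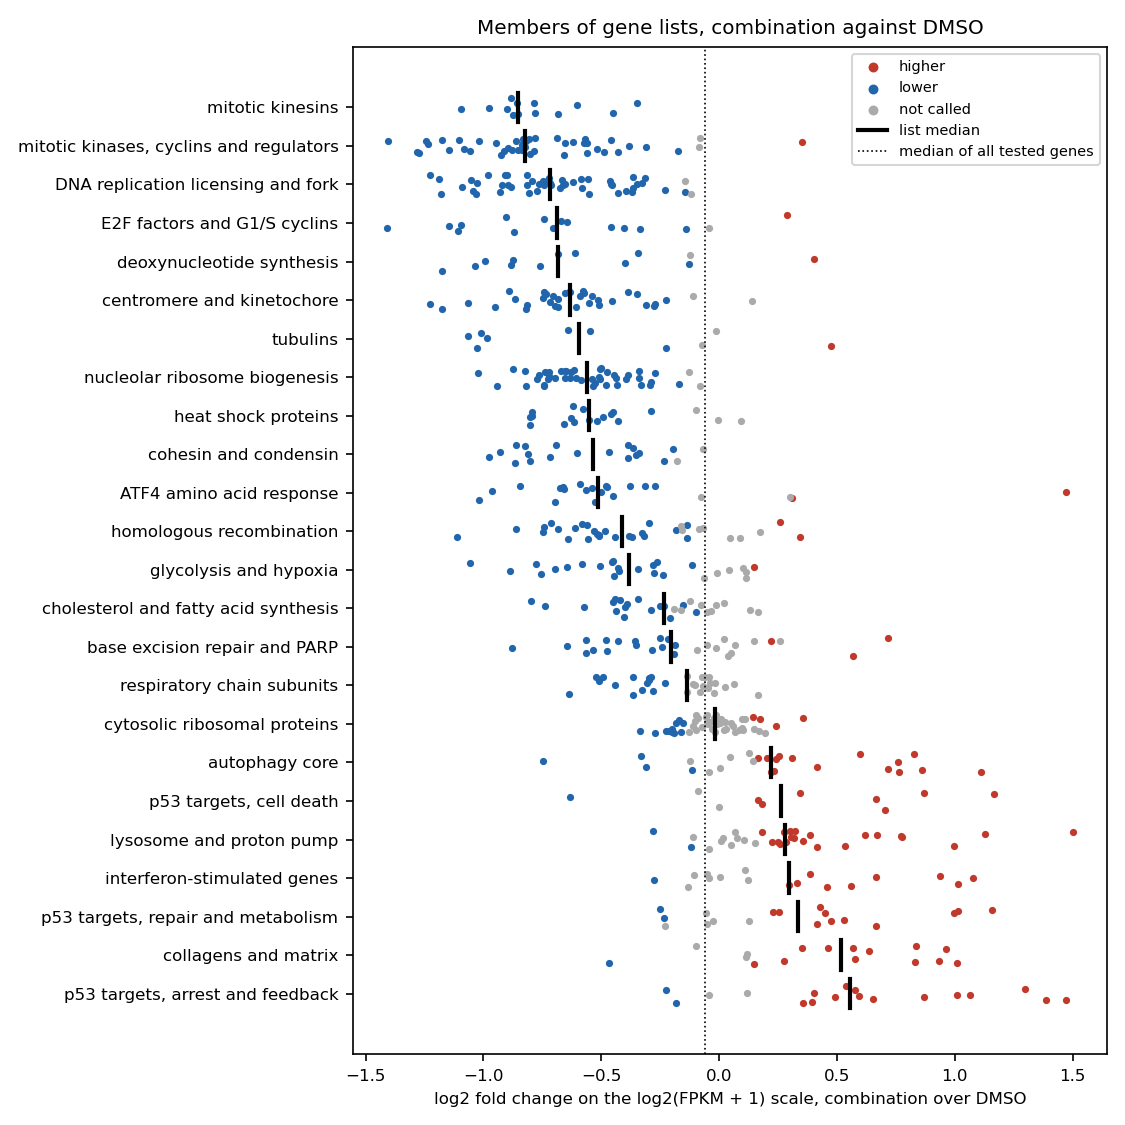
Log2 fold change of each tested member (points; horizontal axis, log2(FPKM + 1) scale) of 24 gene lists (vertical axis), coloured by call, with the list median as a black bar and the median of all tested genes as a dotted line. Kinesin, mitotic and replication lists lie left of the dotted line with medians from -0.85 to -0.72, and the p53 lists, matrix genes and lysosomal genes lie mostly to its right.

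The promoters of these 2 falling groups differed in their letters. RefSeq windows of 250 bases before to 50 after the transcription start (GRCh38.p14) were searched on both strands for the CHR (TTTGAA or TTCGAA), the CCAAT box (CCAAT) and E2F-site letters (TTTCCCGC, TTTGGCGC, TTTGCCGC or TTTCGCGC). Of 10175 tested protein-coding genes 6064 had a single window and were used. The windows of 4 strongly reduced genes are shown, cut to the 200 bases before the start. They were picked because they hold CHR letters (MKI67 and KIF4A) or E2F letters (GINS2 and CDC25A). Many strongly reduced genes held neither, among them CCNA2, MYBL2, CHAF1B, TMSB15A and KIF20A. Of 33 windows of genes that fell more than 2-fold, 11 held CHR letters and 5 E2F letters. Capitals mark matches to any of the searched letters on either strand.

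MKI67, chr10:128126424-128126623, minus strand: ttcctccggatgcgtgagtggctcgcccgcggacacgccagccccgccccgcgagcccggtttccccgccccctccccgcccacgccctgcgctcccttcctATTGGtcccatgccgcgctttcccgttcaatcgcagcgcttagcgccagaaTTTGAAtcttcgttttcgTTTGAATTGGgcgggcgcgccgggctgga
KIF4A, chrX:70289904-70290103, plus strand: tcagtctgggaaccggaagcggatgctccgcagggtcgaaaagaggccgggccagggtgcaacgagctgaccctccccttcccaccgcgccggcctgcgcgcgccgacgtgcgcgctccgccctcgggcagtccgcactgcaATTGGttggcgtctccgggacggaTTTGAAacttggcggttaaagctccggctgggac
GINS2, chr16:85688955-85689154, minus strand: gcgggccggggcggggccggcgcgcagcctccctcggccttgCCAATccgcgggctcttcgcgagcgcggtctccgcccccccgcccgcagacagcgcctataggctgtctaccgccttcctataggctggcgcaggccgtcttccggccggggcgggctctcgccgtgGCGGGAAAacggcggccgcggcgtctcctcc
CDC25A, chr3:48188418-48188617, minus strand: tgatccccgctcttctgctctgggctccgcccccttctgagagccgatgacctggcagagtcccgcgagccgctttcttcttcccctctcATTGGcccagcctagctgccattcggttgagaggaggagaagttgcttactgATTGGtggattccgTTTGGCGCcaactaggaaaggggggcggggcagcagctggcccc

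MKI67 held CHR letters starting 47 and 29 bases before the start, the second overlapping a CCAAT box read on the other strand, and KIF4A held 1 CHR match 34 bases before the start. GINS2 and CDC25A held no CHR letters and 1 E2F match each, 31 and 44 bases before the start. Across lists, CHR letters stood in 20 of 26 mitotic regulator windows (76.9%), 9 of 12 kinesin windows (75%) and 15 of 26 centromere windows (57.7%), but in 2 of 35 replication windows (5.71%). E2F letters stood in 17 of 35 replication windows (48.6%) and in 1 of 26 mitotic regulator windows (3.85%). For all 6064 genes the shares were 10.8% for the CHR and 5.99% for E2F letters, and over all 35116 RefSeq windows 16.4% and 3.31%. CHR letters stood in 359 of 2598 windows of genes that fell (13.8%) and 99 of 1194 of genes that rose (8.29%). For changes of more than 2-fold the counts were 11 of 33 (33.3%) and 3 of 47 (6.38%). These are counts of letters, with no test, and a match is not a shown binding site.

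**Figure D3:**
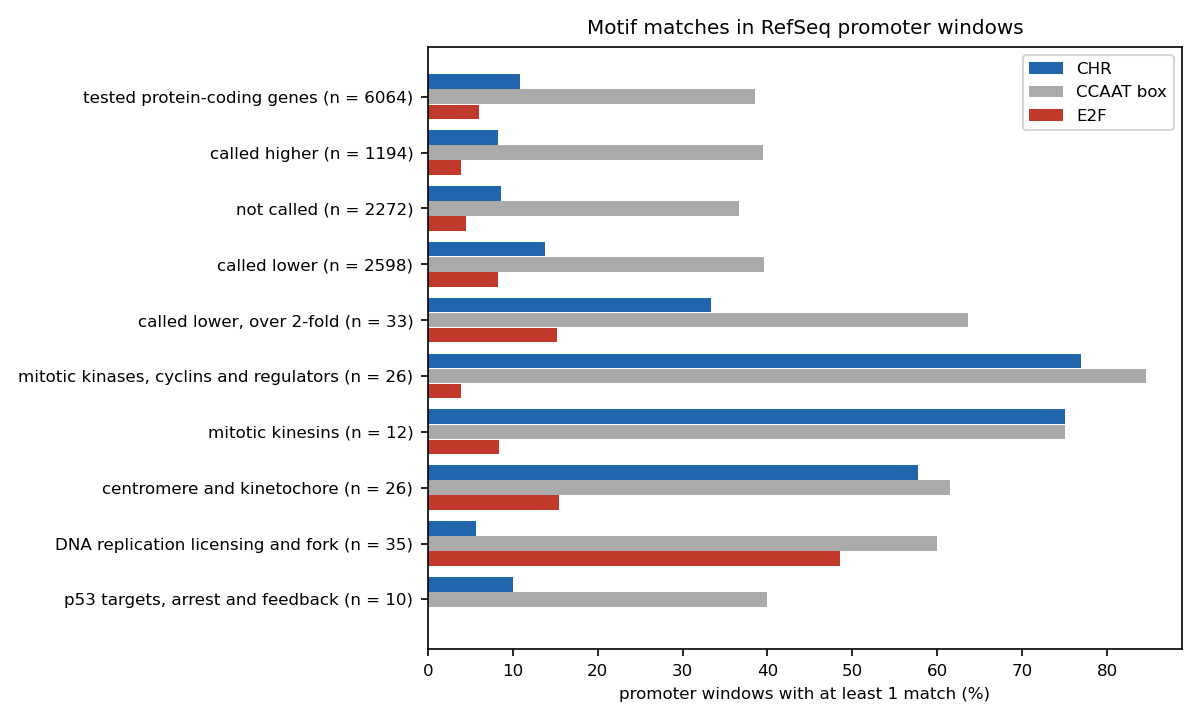
Share of promoter windows (horizontal axis, percent) with at least 1 match to CHR, CCAAT box or E2F letters (coloured bars) in classes of tested protein-coding genes and in gene lists (vertical axis, number of windows in brackets). CHR bars reach 76.9% for mitotic regulators and 5.71% for replication genes, and E2F bars 3.85% and 48.6%.

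Transcripts of the drugs' own targets changed moderately. PARP1, the main DNA break sensor of its family (chr1:226360691-226408079), measured 107 FPKM in both DMSO libraries and 71.6 and 72.8 FPKM with the combination, a log2 change of -0.56 ± 0.03 (limma adjusted p = 2.03e-05). PARP2, its closest relative, fell from 13.2 and 12.3 to 9.11 and 7.89 FPKM. PARP3, which acts in end joining, rose from 2.66 and 3.02 to 5.19 and 5.41 FPKM. CDK4 went from 54.7 and 57.3 to 44.8 and 49.3 FPKM, a fall of which the limma adjusted p (0.00889) rose to 0.0608 without the second DMSO library and to 0.586 after quantile normalisation. CDK6 was below the expression limit, at 0.933 and 0.920 FPKM with DMSO and 0.928 in both combination libraries. CCND1, cyclin D1, the activating subunit of CDK4 and CDK6, rose from 64.6 and 66.5 to 87.7 and 89.2 FPKM. RB1, the substrate that palbociclib protects from phosphorylation, was not called (9.61 and 9.58 against 8.60 and 8.30 FPKM; limma adjusted p = 0.0637), but 6 of 18 alternative settings called it lower. Its limma adjusted p was 0.0128 and 0.0127 without the first and the second olaparib library, 0.0164 with voom on recovered reads, 0.0257 with only the groups compared, 0.0429 with a replicate block and 0.0441 with a limit of 5 FPKM. Of its relatives, RBL1 (p107) fell by 0.53 and RBL2 (p130) rose by 0.25 on the log2 scale. Over the list of CDK4/6, D cyclins and the RB axis, 4 of 12 tested genes rose and 3 fell. Over all genes 21.5% rose and 35.3% fell.

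DNA repair genes fell in part. In homologous recombination, which repairs breaks from a sister chromatid, 25 of 34 tested genes fell and 2 rose (median -0.41). BRCA1 went from 12.1 and 13.1 to 8.42 and 8.04 FPKM and BRCA2 from 4.79 and 5.08 to 3.11 and 2.83 FPKM. The lowest was the nuclease EXO1 (-1.11), and the 2 that rose were the kinase ATM (0.34) and RAD52 (0.26). In base excision repair with the PARP genes 16 of 28 fell, such as the glycosylases NEIL3 (-0.88) and NTHL1 (-0.65), and 3 rose, the largest of these differences being that of PARP3 (0.72); 9 rose as TPM and 6 after quantile normalisation. End joining was mixed, with 7 of 14 lower and 3 higher. Over all genes 35.3% were lower and 21.5% higher, and over protein-coding genes 40.7% and 21.1%. The Ku subunits XRCC6 (275 and 278 to 170 and 171 FPKM) and XRCC5 were among the lower. Fanconi anaemia genes, which clear crosslinks, had 10 of 18 lower and 1 higher, led by UBE2T (-0.92) and FANCI (-0.84); the count of falls was 6 without the second DMSO library and 6 as TPM. Mismatch repair had 4 of 6 lower (35.3% of all genes were), including MSH6 (-0.47). Of 19 ATR and ATM checkpoint genes 12 fell, including CHEK1 (-0.68) and H2AFX, the histone that is phosphorylated at breaks (107 and 110 to 54.0 and 64.5 FPKM).

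Targets of p53 rose in the same libraries. Of 46 tested genes in the 3 p53 lists, 32 rose and 5 fell, with a median log2 change of 0.42. CDKN1A, the CDK inhibitor p21 (chr6:36676460-36687339), measured 12.4 and 12.7 FPKM with DMSO and 24.5 and 28.1 FPKM with the combination, a 2.10-fold difference and a log2 change of 1.01 ± 0.06 (limma adjusted p = 2.88e-05). Among arrest and feedback genes 14 of 18 rose: SESN2, a brake on mTORC1 that other stress pathways also control, went from 21.3 and 20.5 to 57.8 and 61.8 FPKM, the cytokine GDF15 from 2.15 and 2.64 to 6.85 and 8.99 FPKM, and BTG2, an antiproliferative gene, from 8.63 and 8.90 to 21.8 and 24.2 FPKM. The groups did not overlap in any of these 4 genes, but both combination libraries lay above both DMSO libraries for 32.5% of all genes. For SESN2 and GDF15 this was also a condition of being named among the strongest rises. Of 10 cell death genes 7 rose, including BBC3, the BH3-only protein PUMA (5.36 and 5.40 to 12.1 and 14.7 FPKM), and the pro-apoptotic pore protein BAX (58.4 and 60.2 to 64.4 and 69.0 FPKM). The BAX difference was small, a 1.12-fold level and a log2 change of 0.17 ± 0.05 (limma adjusted p = 0.0341). That call was lost without a filter (limma adjusted p = 0.0904), without the expression trend (0.0523), and, at 0.0554 to 0.154, without either DMSO library, either palbociclib library or the second combination library. Of 18 repair and metabolism genes 11 rose, among them the mitochondrial reductase FDXR (19.7 and 21.2 to 38.4 and 45.2 FPKM) and the lysosomal enzyme FUCA1 (2.78 in both to 6.87 and 8.06 FPKM).

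Some p53 targets were not called: 2 in the arrest and feedback list, 2 in the cell death list and 5 in the repair and metabolism list. MDM2, the ubiquitin ligase through which p53 limits itself (chr12:68808176-68850686), was 1 of them. It measured 6.30 and 6.27 FPKM with DMSO and 6.38 and 5.75 FPKM with the combination, a log2 change of -0.04 ± 0.06 (limma adjusted p = 0.548). With olaparib alone it was higher, at 8.76 and 8.32 FPKM (limma adjusted p = 0.0137), and with palbociclib alone lower, at 5.39 and 4.97 FPKM (limma adjusted p = 0.0136). The 5 p53 targets that fell were SIVA1 (-0.63), ASCC3 (-0.25), POLH (-0.23), TRIAP1 (-0.23) and MDM4 (-0.18). Apart from SIVA1, these falls were no longer called when libraries were rescaled to TPM. The limma adjusted p of TRIAP1 was 0.0569 without the second DMSO library, and that of MDM4 was 0.0866 without the first DMSO library and 0.0631 without the second combination library.

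**Figure D4:**
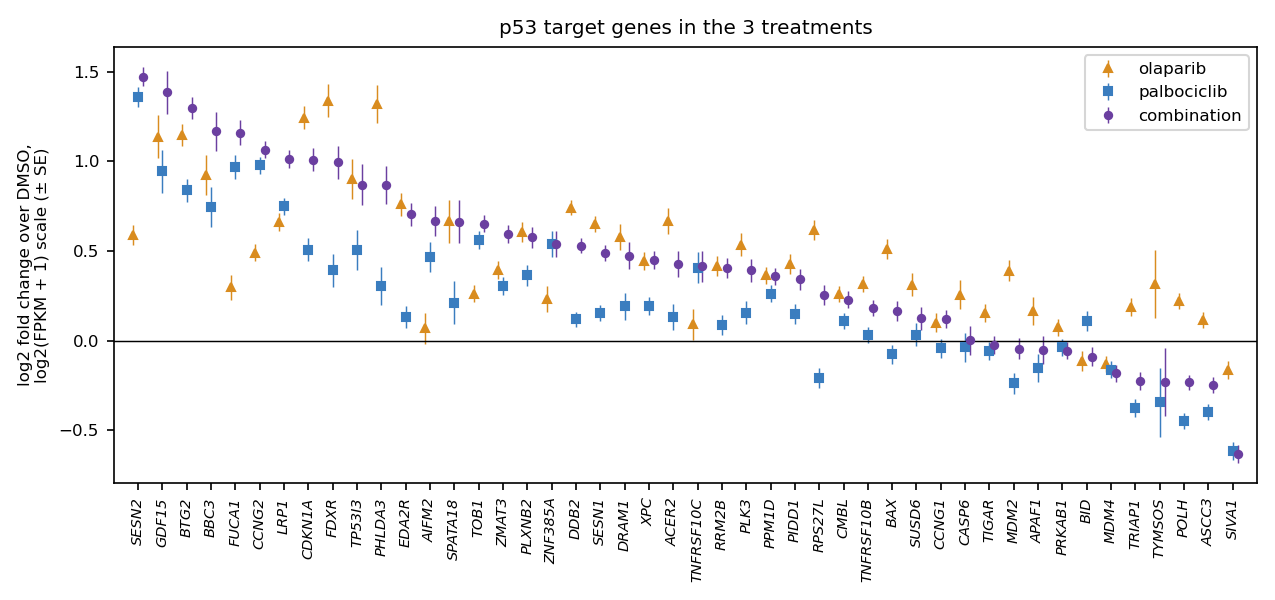
Log2 fold change over DMSO (vertical axis, log2(FPKM + 1) scale, bars are the SE from limma) of the 46 tested p53 targets, ordered by the combination (horizontal axis), for olaparib (triangles), palbociclib (squares) and the combination (circles), which share the same 2 DMSO libraries. Combination values run from 1.47 for SESN2 to -0.63 for SIVA1, and MDM2 lies near 0 with the combination, above it with olaparib and below it with palbociclib.

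Nucleolar genes of ribosome assembly were lower: of 46 tested, 44 fell and none rose (median -0.56). LYAR (46.6 and 43.1 to 21.5 and 21.7 FPKM), the RNA helicase DDX21 (125 and 124 to 68.1 and 60.8 FPKM) and MRTO4 (-0.88) were the lowest. MYC, which controls many of these genes, rose from 93.8 and 92.8 to 111 and 120 FPKM, a log2 change of 0.30 ± 0.05 (limma adjusted p = 0.00282). Of its antagonists in the MYC network, MXD4 (1.67) and MXD1 (0.64) rose and MXD3 (-0.32) fell. The MXD3 call (limma adjusted p = 0.0261) was lost without a filter (0.0877) and as TPM (0.0795). MLX (-0.55) also fell, and the counts were 4 higher and 4 lower of 10, against 21.5% higher and 35.3% lower over all genes. The list median of 0.002 was 0.03 without the second DMSO library and -0.01 without the first combination library. Cytosolic ribosomal protein genes centred on -0.02, with 4 of 51 higher, such as RPL3 (0.35), and 11 lower, such as RPL35 (-0.33). That balance followed the scaling, with 33 higher and 2 lower after quantile normalisation and 27 higher and 2 lower as TPM, and the falls numbered 5 without the second DMSO library.

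Heat shock genes, which encode protein-folding chaperones, fell in 16 of 19 cases with none higher (median -0.55). HSPA8 went from 614 and 637 to 366 and 355 FPKM, HSP90AA1 from 328 and 333 to 192 and 187 FPKM, and the mitochondrial chaperonin HSPD1 from 405 and 409 to 235 and 230 FPKM. Of 22 genes of the ATF4 amino acid response 18 fell, such as the amino acid carriers SLC7A5 (117 and 114 to 55.3 and 57.7 FPKM) and SLC1A5 (-0.96) and the folate enzyme MTHFD2 (-0.85). The 2 that rose, SESN2 and the mTORC1 inhibitor DDIT4 (0.31), are also induced by p53. In endoplasmic reticulum stress, 12 of 21 fell, including XBP1 (-0.48) and CALR (-0.45), and 1 rose, but after quantile normalisation 6 fell and 3 rose and the median turned from -0.25 to 0.01; as TPM 9 fell and 7 rose. Glycolysis and hypoxia genes fell in 19 of 26 cases: lactate dehydrogenase LDHA (240 and 243 to 116 in both), hexokinase HK2 (-0.89) and the glucose carrier SLC2A1 (-0.78) were lowest. The carrier SLC2A3 was the 1 that rose (0.15; 6 of the list rose as TPM), with a limma adjusted p of 0.0897 without the second DMSO library and 0.0524 without the second combination library. Cholesterol and fatty acid synthesis had 17 of 27 lower and none higher, led by ACAT2 (-0.80) and EBP (-0.74), but 9 lower and 3 higher after quantile normalisation and 12 lower and 2 higher as TPM. Nuclear-encoded respiratory chain subunits had 14 of 30 lower (35.3% of all genes and 40.7% of protein-coding genes were) and none higher. The list median was -0.14, and SDHB (-0.64) was lowest. After quantile normalisation 8 were lower and 11 higher, with a median of 0.03, so the direction of this list followed the scaling.

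**Figure D5:**
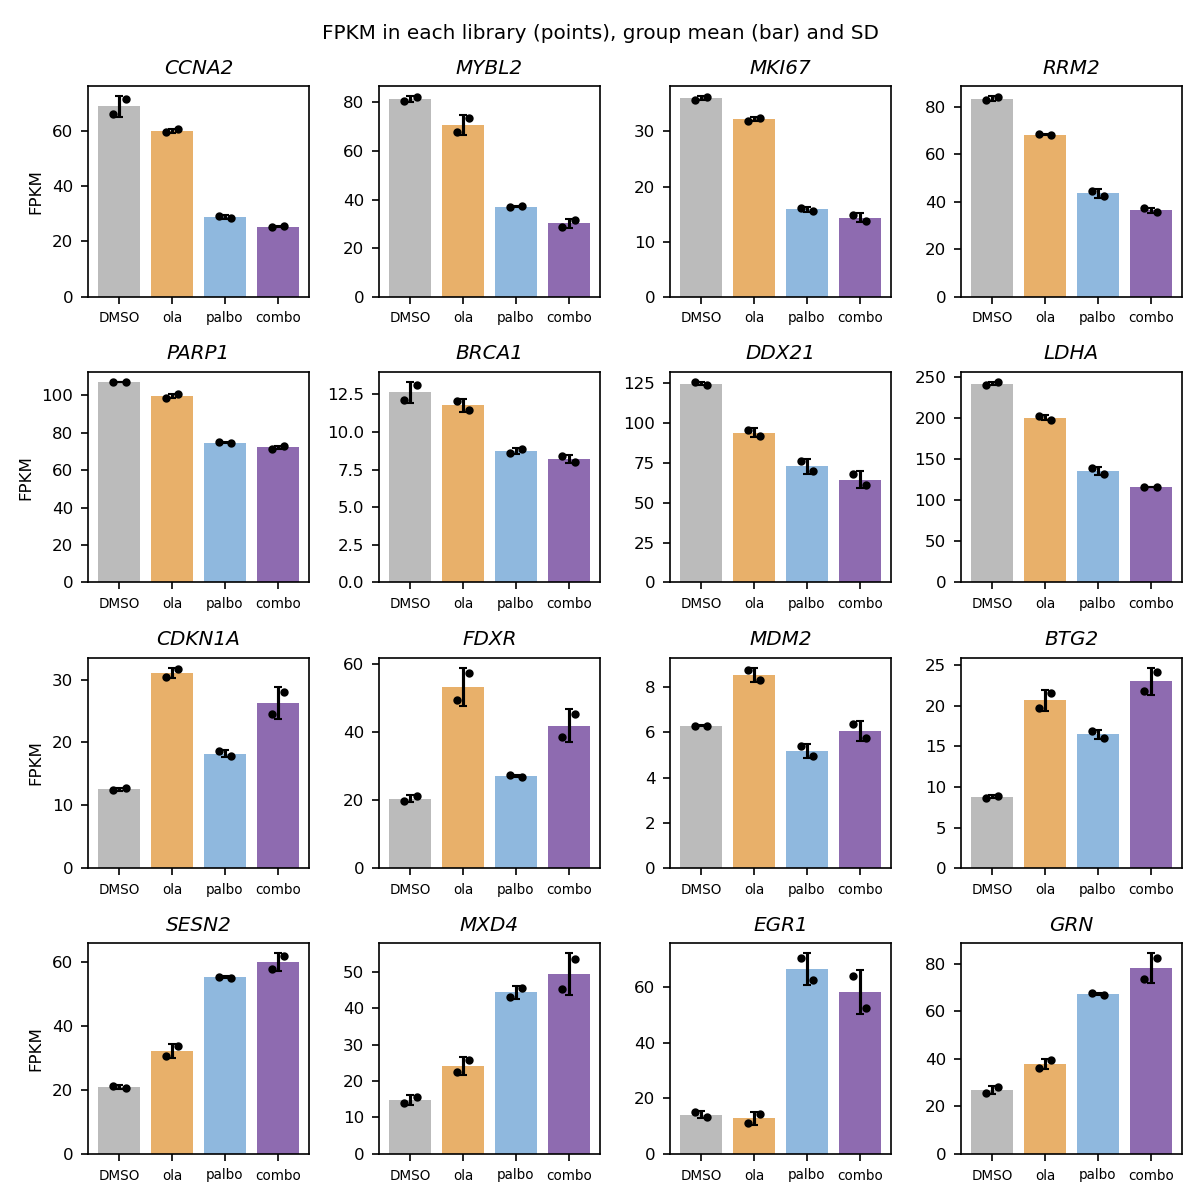
FPKM (vertical axes, from 0) of 16 genes in the 4 groups (ola, olaparib; palbo, palbociclib; combo, both drugs); points are the 2 libraries, bars the group mean and error bars the SD. Combination bars lie near the palbociclib bars for CCNA2, MKI67 and EGR1, whereas for CDKN1A the combination libraries (24.5 and 28.1) lie between those of palbociclib and olaparib.

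Most tested lysosomal and autophagy genes rose. Of 32 lysosomal and proton pump genes 21 rose and 2 fell (median 0.28), with the cathepsin CTSF (4.64 and 4.55 to 10.8 and 11.6 FPKM) and the glucosidase GAA (15.6 and 15.7 to 30.5 and 33.9 FPKM) next to GRN. The 2 that fell were GUSB (-0.28) and LAMP1 (-0.12), the latter with the opposite sign after quantile normalisation and as TPM. Of 25 autophagy genes 15 rose, such as WIPI1 (1.11), GABARAPL1 (0.86) and the cargo receptor NBR1 (0.76), and 4 fell, including ATG3 (9.77 and 9.32 to 5.38 and 5.17 FPKM). Of 38 listed interferon-stimulated genes 20 were below the expression limit, and of the 17 tested 9 were higher and 1, USP18, lower (not called as TPM): IFIT1 went from 7.14 and 7.07 to 16.4 and 15.8 FPKM and STAT2 from 3.89 and 3.68 to 8.46 and 7.84 FPKM, while ISG15 (-0.05) was not called. Of 9 tested antigen presentation genes, with another 9 below the limit, 6 rose and 2 fell, with HLA-E (0.76) and HLA-C (0.67) highest; reads of the HLA genes may be divided between near copies.

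Of 32 listed collagen and matrix genes 16 were below the expression limit; of the 16 tested, 12 were higher and COL5A2 (-0.47) was lower. The laminin LAMB2 rose from 52.6 and 51.5 to 104 and 108 FPKM, and COL6A1 went from 7.46 and 7.71 to 14.9 and 16.6 FPKM. Genes of epithelial and mesenchymal identity were mostly below the limit (14 of 22 listed). Of the 5 tested, VIM (248 and 253 to 340 and 339 FPKM), SNAI2 (0.37) and TWIST1 (0.23) rose, while CDH2 (limma adjusted p = 0.312) and ZEB1 (limma adjusted p = 0.0571) were not called. The TWIST1 call (limma adjusted p = 0.0354) was lost without a filter (0.117) and, at 0.0561 to 0.167, without either DMSO library, either palbociclib library or the second combination library. Secreted factors associated with senescence were mixed, 4 of 11 tested higher and 5 lower, with 15 below the limit, and LMNB1, the nuclear lamin B1 that is lost in senescent cells, fell from 141 and 146 to 96.9 and 101 FPKM; 3 of the list fell without the first combination library. Among immediate early factors 6 of 15 rose and none fell, including FOS (1.70 and 1.58 to 4.89 and 4.61 FPKM) and JUNB (0.65) besides EGR1. MAP kinase feedback genes had 6 of 14 higher, such as SPRY4 (0.56) and DUSP6 (0.51), and 2 lower. TGF-beta, BMP and ID genes had 10 of 17 higher, led by TGIF1 (0.70), and 1 lower, with 6 higher without the first DMSO library. YAP and TEAD genes had 7 of 15 higher, led by CYR61 (39.9 and 38.1 to 75.4 and 74.8 FPKM), and 4 lower, including TEAD4 (-0.64). For the lists from the senescence factors to the YAP and TEAD genes, the shares over all genes were 21.5% higher and 35.3% lower. The BCL2 family, which sets the threshold for apoptosis, had 3 of 12 higher (21.5% of all genes were) and 2 lower, BCL2L2 (-0.36) and BAK1 (-0.29). The rises include BBC3 and BAX, which are also counted in the p53 cell death list. As TPM 7 were higher and 2 lower, and after quantile normalisation 5 were higher and 3 lower.

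Each single drug was set beside the combination using the same 2 DMSO libraries, so these comparisons are not independent of it. By the same test 514 genes (4.13%) rose and 1307 (10.5%) fell with olaparib alone, 14.6% in all, and 2324 (18.7%) rose and 3904 (31.4%) fell with palbociclib alone, 50.1% in all. Of the 51 replication genes 21 fell with olaparib, 48 with palbociclib and 49 with the combination, and of the 46 nucleolar genes 33, 42 and 44. The median of the replication list was -0.15 with olaparib, -0.55 with palbociclib and -0.72 with the combination. For the p53 targets the medians with olaparib, palbociclib and the combination were 0.45, 0.30 and 0.56 in the arrest and feedback list, 0.37, 0.12 and 0.26 in the cell death list, and 0.31, 0.11 and 0.33 in the repair and metabolism list. The order of the medians of olaparib and the combination therefore differed between these lists. Taken gene by gene, the median difference of the combination from olaparib was -0.01, -0.07 and -0.18 log2 units in the same lists.

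Tested directly against olaparib alone, the combination differed in 5522 genes (44.4%), with 17% higher and 27.4% lower. All 13 kinesins and 47 of 51 replication genes were lower. Of the 46 p53 targets 9 were higher and 16 lower than with olaparib alone. SESN2 was among the higher (57.8 and 61.8 against 30.4 and 33.5 FPKM; difference 0.88 log2 units, limma adjusted p = 8.05e-05). FDXR (38.4 and 45.2 against 49.3 and 57.2 FPKM; limma adjusted p = 0.022) and MDM2 (difference -0.43; limma adjusted p = 0.00135) were among the lower. For CDKN1A the difference was -0.23 (limma adjusted p = 0.0224), with both combination libraries below the olaparib pair of 30.5 and 31.7 FPKM.

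Against palbociclib alone, limma called 3 genes (0.0241%), 1 higher (0.00804%) and 2 lower (0.0161%), while 2067 had an unadjusted p below 0.05. A second method, limma with voom weights on the recovered reads, called 289 (2.32%), of which 92 were higher (0.739%) and 197 lower (1.58%). The p53 targets lay mostly on the high side: 41 of 46 had a higher mean log2 value with the combination than with palbociclib, against 42.0% of all genes, and their median difference was 0.20 against -0.02. None of the 46 passed in limma, where 30 were higher and 1 lower at an unadjusted p below 0.05, and with voom 20 were higher and none lower. CDKN1A measured 18.7 and 17.8 FPKM with palbociclib, and its difference was 0.50 ± 0.06 log2 units in limma (adjusted p = 0.0961) and 0.53 ± 0.06 with voom (limma-voom adjusted p = 5.6e-05). EDA2R, a p53-induced death receptor, showed 4.26 and 4.29 FPKM with palbociclib and 7.12 and 6.60 FPKM with the combination, which did not overlap (limma adjusted p = 0.0572, limma-voom adjusted p = 0.000148). On the low side voom called 10 of 51 replication genes, 10 of 46 nucleolar genes and 5 of 22 genes of the ATF4 response. Of 47 mitotic regulators it called 1, a share near that of all genes: MYBL2 (37.1 in both palbociclib libraries against 28.8 and 31.4 FPKM; limma-voom adjusted p = 0.00867).

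The 3 genes called in limma against palbociclib lay outside the naming rule and are given here because there are so few. AC092720.1, a long intergenic noncoding RNA (chr16:87492555-87515635), measured 11.7 and 9.94 FPKM with palbociclib and 1.89 and 1.98 FPKM with the combination (limma adjusted p = 0.0183). It stood at 7.73 and 8.89 FPKM with DMSO and 6.37 and 9.43 FPKM with olaparib, so the 2 combination libraries were far below the other 6. RNU7-141P, a small nuclear RNA pseudogene, was higher, and ENSG00000274519, which has no symbol in the annotation used, was lower. Their recovered reads were few: 9 and 18 in the DMSO libraries together, and 13 for each gene in the combination libraries together. Reads with palbociclib are not given here. For ENSG00000274519, which has no GENCODE length, the reads are the smallest whole numbers matching its FPKM.

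A departure from the sum of the single-drug log2 changes was called by limma in 1 gene (0.00804%), ENSG00000274519, while 1315 genes had an unadjusted p below 0.05. With voom 50 genes (0.402%) departed, all downward. The 4 well-expressed protein-coding genes with the smallest p were DDIT4 (-0.52 ± 0.06), CDKN1A (-0.74 ± 0.09), BTG2 (-0.69 ± 0.09) and DYRK1B, a kinase that favours quiescence (-0.46 ± 0.07). None passed in limma (adjusted p from 0.144 to 0.257). With voom, CDKN1A (limma-voom adjusted p = 0.000104), BTG2 (limma-voom adjusted p = 0.00038) and DDIT4 (limma-voom adjusted p = 0.00351) did. The voom result of DYRK1B is not given here. Other p53 targets also departed downward with voom, including GDF15 (-0.91), PHLDA3 (-0.81), FDXR (-0.76) and SESN2 (-0.50). Listed genes outside the p53 lists, such as MXD4 (-0.56) and TUBA1A (-0.37), did so too. In CDKN1A, the single-drug changes were 1.24 with olaparib and 0.51 with palbociclib, against 1.01 with both.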

How the data were processed

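RNA sequencing of 8 A2780 libraries, 2 for each of 4 treatments, was deposited as 1 table of FPKM per gene. The FPKM values were made by the authors; the submitters' processing notes name, without roles, HTSeq 0.6.0, STAR 2.5.1b, CASAVA 1.8 and the build GRCh38 (hg38). How strand was handled is not stated there, so overlapping and antisense genes cannot be told apart. Multiplying the deposited FPKM by GENCODE v29 exon lengths and a library factor gave whole reads (within 0.01) for 28635 of 30945 genes with a length; lengths of 3086 genes were searched for. The scaling in the table equals median-of-ratios size factors.

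Genes with mean FPKM of at least 1 were tested with limma 3.58.1 (R 4.3.3) on log2(FPKM + 1), with 1 mean per group, all 8 libraries in the fit, an expression trend, and Benjamini-Hochberg adjustment over the 12443 genes at 0.05. Departure is the combination effect minus the sum of both single-drug effects. The code was tested on simulated data. Gene lists and members were chosen with earlier results of these data known, so list counts are descriptions. Some lists share genes, so their counts overlap. Genes named were the 12 highest and 12 lowest called protein-coding genes averaging 5 FPKM or more across the 4 libraries with no overlap between groups, up to 4 in the more frequent direction and 2 in the other per list, a fixed set of drug target and cycle genes, and the 4 smallest p for departure; ISG15, some histone and identity genes, and genes named beside counts against palbociclib were added after their values were seen. Some genes under this rule are not reported here. Alternatives changed the pseudocount, expression limit, scaling, test, samples fitted and replicate block, and left out each library. Gene coordinates and symbols came from GENCODE v29 and promoters from RefSeq.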

Additional observations from a re-analysis of the deposited data

Results flagged for a closer look

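A difference between the effects of palbociclib with and without olaparib was found by the test of that difference in 1 gene, ENSG00000274519, which has no symbol in the annotation used. Its FPKM was 5.04 and 4.44 in DMSO libraries, 7.01 and 8.62 after olaparib, 12.7 and 11.8 after palbociclib, and 4.49 and 4.41 when both drugs were given. The combination therefore lay below the sum of the 2 single-drug changes (departure -1.895 ± 0.13 SE, limma adjusted p = 0.0221). The recovered reads of this gene were 18 in the 2 DMSO libraries and 13 in the 2 combination libraries. They are the smallest whole numbers matching its FPKM, because the gene has no GENCODE length. Whether such low counts have a part in the result was not tested.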

How the results depend on the processing

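Of 223 named-gene calls, 195 stayed on the same side of the threshold with the same sign in all of the 18 alternative settings that tested them. Signs turned for RPL24 (0.0812), LAMP1 (0.0909), ETV4 (0.0483) and CCNE1 (0.0748) after quantile normalisation, and for LAMP1 (0.0172) as TPM. Genes higher than DMSO numbered 1441 with a limit of 5 FPKM, where fewer genes are tested, and 4068 as TPM. Genes differing from palbociclib alone, 3 in the reported fit, numbered 23 without a filter, 19 with a limit of 5 FPKM, 17 after quantile normalisation, 12 as TPM, 289 with voom and 0 without the trend; the departure count of 1 became 33, 6 and 50 with no filter, a limit of 5 FPKM and voom, and 0 without the trend. The cause was not tested. Leaving out each library gave 2040 to 2648 genes higher and 3538 to 4393 lower than DMSO, 4080 to 5192 differing from olaparib, 0 to 2 from palbociclib and 0 to 2 departing. Leaving out a library leaves 1 in its group, which is then assumed to vary like the others. Counts against palbociclib fell to 0 without either palbociclib library or the second combination library, and the departure count to 0 without any one library of DMSO, palbociclib or the combination.

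With the replicate number as a block, 2703 genes were higher and 4532 lower than DMSO, 5696 differed from olaparib, 3 from palbociclib and 0 departed. Deviations of same-numbered libraries from their group means correlated between -0.0467 and 0.0342 across 12443 genes, so they did not deviate together. This does not decide whether the numbers pair the libraries, since matched sets without a shared deviation would give the same values. Depth was 20561495 to 34049920 reads per library, with 2 libraries per group.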

Other observations

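The balance of rises and falls is given here by transcript class. Of 10175 tested protein-coding genes 21.1% rose and 40.7% fell with the combination, whereas of 370 long intergenic noncoding RNAs 30% rose and 8.92% fell, with a median log2 change of 0.15 against -0.09. Antisense transcripts were similar (498 tested, 25.9% higher, 9.84% lower), with the limit that strand handling is not given, and 50 of 147 transcribed unprocessed pseudogenes rose (34%) while 14 fell. Falls outnumbered rises in 294 processed pseudogenes (16% higher, 21.8% lower) and 93 small nucleolar RNAs (9.68% higher, 18.3% lower). These classes were set apart after their values were seen. The difference between classes was not tested. Fibroblast genes of A2780 did not all rise with the matrix list: COL1A2 went from 8.26 and 7.79 to 15.1 and 15.0 FPKM, but LUM (45.6 and 44.4 against 45.1 and 44.1 FPKM; limma adjusted p = 0.858) and DCN (7.15 and 7.20 against 6.49 and 6.04 FPKM; limma adjusted p = 0.0695) were not called.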
